A study of Mus musculus with 6 samples.

Results

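The genes described here take part in lipid transport and handling in the brain. They are the secreted carriers Apoe, Clu and Apod, the membrane pumps Abca1 and Abcg1, and the enzymes Lpl and Lcat. The others are the receptor Lrp1, the nuclear receptor Nr1h2 and the lipid droplet coat gene Plin2. All 10 were chosen by name, with earlier results of these data known, and were found among the 12968 genes of the deposited table. RNA on tagged ribosomes was precipitated from the middle section of the left brain hemisphere of mice by RiboTag, an allele that puts an epitope on Rpl22, a protein of the large ribosomal subunit, wherever Cre is active. In 3 mice the middle cerebral artery had been occluded for 1 h (MCAO), and 3 control mice had no occlusion; all were killed after 3 days. The labels give no Cre driver, strain, age, sex or sham operation, so the cell type that carries the tag is known from the series title alone, which names the astrocyte transcriptome. Each library was 1 animal, its RNA precipitated 2 times and pooled, and nothing further is said of how the animals were matched.

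Neurons and glia of the adult brain make their own cholesterol, since plasma lipoproteins hardly cross the blood-brain barrier. Astrocytes load it onto apolipoprotein E through ABC pumps, LCAT esterifies it on the particle, and receptors such as LRP1 take the particles up. The liver X receptors (LXR), of which Nr1h2 encodes the beta form, sense oxysterols and switch on the pump genes. Phagocytes that clear myelin meet a surplus of cholesterol, which they export or store in lipid droplets.

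Values are scaled read counts, reads of a gene over a scale factor that is common to its library. They were tested with limma on log2(value + 1), and p-values were adjusted by Benjamini-Hochberg over 12549 genes with a mean of at least 10. Reads in the deposited genes numbered from 882263 in MCAO 2 to 9519548 in control 1. Pairs of libraries of the same group correlated across genes at 0.934 to 0.966, and pairs from different groups at 0.890 to 0.943; genes are not independent replicates. The values are not per gene length, so levels are compared between libraries and not between genes. In such bulk samples fewer cells of a type and less RNA per cell cannot be told apart.

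Apod and Lpl rose after MCAO, while Apoe, Clu, Lcat, Lrp1, Nr1h2, Abca1 and Abcg1 were not called. Plin2 had its 3 MCAO libraries above its 3 controls, but its adjusted p of 0.0511 (limma) missed the threshold of 0.05. In all, 2 of the 10 genes were called, both higher, where 3.08% of tested genes were called and 2.30% were called higher. The MCAO and control libraries did not overlap in 3 of the 10, against 24.9% of tested genes. The median log2 change was 0.27 over the 10 genes and -0.01 over all tested genes. The tagging target Rpl22 averaged 251 ± 52.1 scaled reads after MCAO and 197 ± 32.8 in controls (adjusted p = 0.330).

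**Figure D1:**
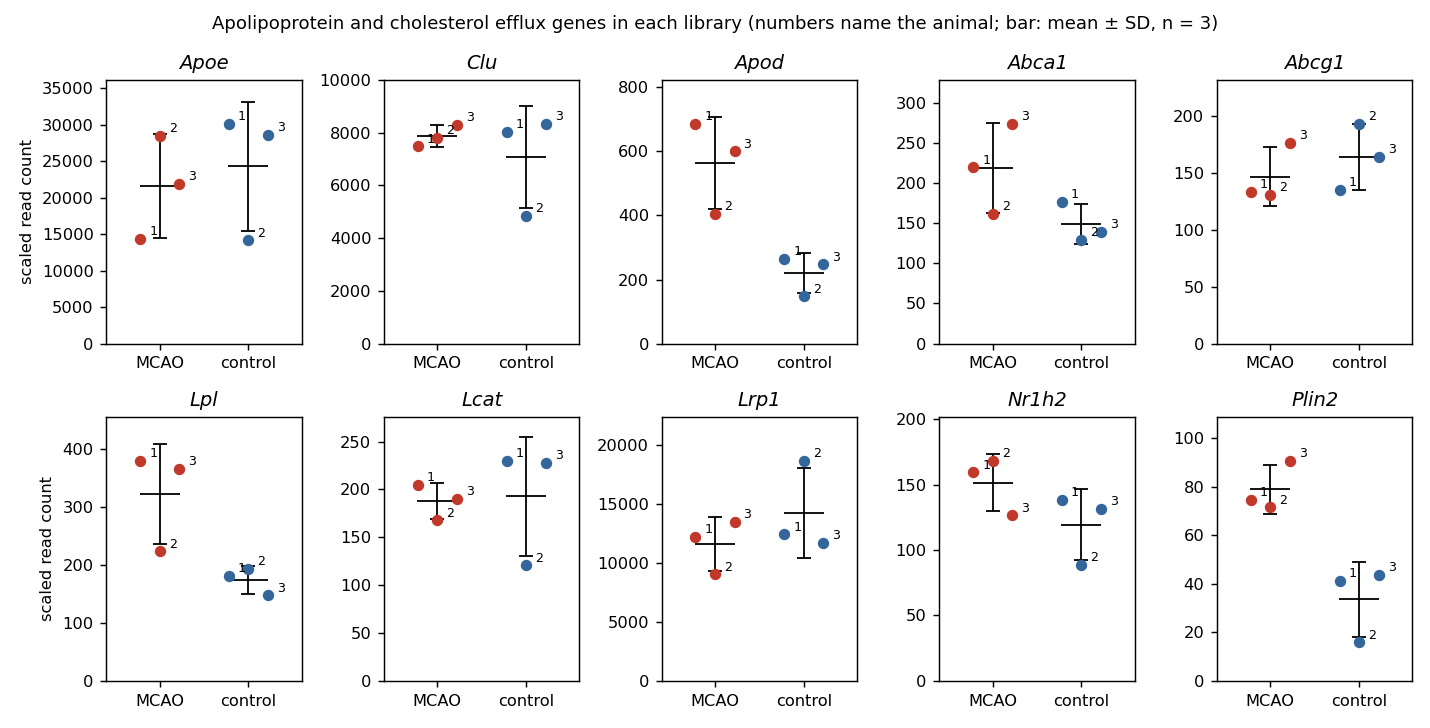
Scaled read counts (vertical axes, each from 0) of the 10 genes in the MCAO libraries (red, left) and control libraries (blue, right); digits name the animal, and bars give the mean ± SD (n = 3 each). MCAO and control points do not overlap for Apod, Lpl and Plin2, and control 2 is the lowest control for 7 genes and the highest for the other 3.

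Apod, with a promoter of low GC content, is shown beside Plin2 and Abca1 because these are the 3 genes with the largest positive changes other than Lpl, for which no promoter sequence was at hand. Each sequence holds the 250 bases before the transcript start listed for the gene, 5′ to 3′ on the minus strand of GRCm38.p6, as given by RefSeq. The listed start of Abca1 and of Plin2 lies within the span of the gene, so 93 bases of the Abca1 window and 158 of the Plin2 window overlap that span, and 0 of the Apod window. Capitals mark the nuclear receptor half-site AGGTCA, the TATA box TATAAA, the E-box CACGTG and the GC box GGGCGG, searched on both strands.
Apod, chr16:31314809-31315058: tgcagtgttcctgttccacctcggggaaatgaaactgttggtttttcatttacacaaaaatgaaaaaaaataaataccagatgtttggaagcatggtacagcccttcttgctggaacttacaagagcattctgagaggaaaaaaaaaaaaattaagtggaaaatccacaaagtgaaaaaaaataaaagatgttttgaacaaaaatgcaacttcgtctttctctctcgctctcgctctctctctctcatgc
Plin2, chr4:86670060-86670309: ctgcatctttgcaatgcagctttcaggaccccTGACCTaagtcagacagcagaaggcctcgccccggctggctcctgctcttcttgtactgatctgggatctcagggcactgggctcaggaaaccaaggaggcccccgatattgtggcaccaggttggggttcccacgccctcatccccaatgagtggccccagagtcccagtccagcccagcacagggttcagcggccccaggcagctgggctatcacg
Abca1, chr4:53159896-53160145: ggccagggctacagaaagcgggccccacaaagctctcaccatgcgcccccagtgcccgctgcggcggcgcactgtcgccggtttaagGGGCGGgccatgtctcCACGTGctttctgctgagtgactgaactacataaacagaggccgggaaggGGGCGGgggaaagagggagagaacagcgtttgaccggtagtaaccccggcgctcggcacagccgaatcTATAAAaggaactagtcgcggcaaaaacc
The Apod window held none of these motifs and had a GC content of 36.4%, with 6.24% of 32851 promoter windows lower. In the Plin2 window the half-site stands on the opposite strand, read TGACCT, with its first base 218 bases before the start, and 14.0% of windows hold such a half-site. In the Abca1 window a TATA box begins 29 bases before the start (12.4% of windows hold one), an E-box 147 bases before it (6.02%), and GC boxes 97 and 163 bases before it (32.7%). An exact consensus LXR element, here a pair of AGGTCA half-sites 4 bases apart, was found in 5 of all 32851 windows. None of the 9 windows of the 7 genes with a sequence held it. Its PPAR counterpart, with 1 base between the half-sites, was found in 11 windows (0.0335%) and in none of those 9. The half-site search counts the half-sites inside these elements too. Only exact letters were searched, so elements with other bases in a half-site would be missed, and so rare a string can hardly separate genes. No match says only that these letters do not stand in this window, and not that the gene lacks an LXR or PPAR element.

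Of the 3 carriers Apod was called, and whether its change differed from those of Apoe and Clu was not tested. Apoe (chromosome 7, 19696244 to 19701310), the main apolipoprotein of the brain, had 14319.8, 28499.6 and 21906.5 scaled reads in MCAO 1, 2 and 3, against 30130.7, 14141.9 and 28595.2 in controls 1, 2 and 3. One library of each group, MCAO 1 and control 2, held less than the rest, and the groups overlapped. Apoe averaged 21575 ± 7096 scaled reads after MCAO and 24289 ± 8821 in controls (SD, n = 3 each). The log2 change was -0.15 (SE 0.34, limma adjusted p = 0.855), with a 95% interval from -0.88 to 0.58. Apoe made up 0.533%, 1.04% and 0.817% of the reads of MCAO 1, 2 and 3, against 1.0998%, 0.518% and 1.04% in controls 1, 2 and 3, and held the most reads of any gene in 4 of the 6 libraries. The exact 95% Poisson interval, which holds counting error alone, was 14140.4 to 14501 scaled reads for MCAO 1 and 27919 to 29089 for MCAO 2. Without the shallowest library of each group, MCAO 2 and control 2, Apoe was called lower, at -0.73 (adjusted p = 0.0477).

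Clu (chromosome 14, 65968483 to 65981548), which encodes clusterin, a secreted chaperone also called apolipoprotein J, stood at 7491, 7809.9 and 8303 scaled reads in MCAO 1, 2 and 3 and at 8044, 4859 and 8344 in controls 1, 2 and 3. Only control 2 lay apart from the other 5 libraries. Means were 7868 ± 409 after MCAO and 7082 ± 1931 in controls, a log2 change of 0.19 (SE 0.23, adjusted p = 0.690; 95% interval -0.30 to 0.68). Without control 2 the change was -0.06.

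Apod (chromosome 16, 31296192 to 31314808) encodes apolipoprotein D, a lipocalin that binds small lipids such as arachidonic acid and is known in brain from glia and perivascular cells. It had 687, 404 and 601 scaled reads in MCAO 1, 2 and 3, against 264, 147 and 247 in controls 1, 2 and 3. Every MCAO library lay above every control. The mean was 564 ± 145 after MCAO and 219.6 ± 63.3 in controls. Apod rose by 1.37 on the log2 scale (SE 0.23, adjusted p = 0.00471), or 2.58-fold with a 95% interval of 1.83 to 3.63, and ranked 95 by p among the genes tested. It was called with any 1 library left out, at adjusted p of 0.00204 to 0.0371, and lost its call with no intensity trend in the moderation (0.104).

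The pumps did not pass the test. Abca1 (chromosome 4, 53030789 to 53159988), which hands cholesterol and phospholipid to lipid-poor apolipoproteins, stood at 219, 162 and 274 scaled reads in MCAO 1, 2 and 3 and at 177, 129 and 139 in controls 1, 2 and 3. MCAO 2 lay below control 1, and the other MCAO libraries lay above all controls. Means were 218 ± 56.0 and 148 ± 25 in MCAO and control mice, a log2 change of 0.53 (SE 0.20, unadjusted p = 0.0199, limma adjusted p = 0.172; 95% interval 0.10 to 0.97). Abca1 was called under none of the other settings tried, where adjusted p lay between 0.0509 and 0.445.

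Abcg1 (chromosome 17, 31057694 to 31117984), which passes cholesterol to lipidated particles, had 134, 131 and 177 scaled reads in MCAO 1, 2 and 3, against 135, 193 and 164 in controls 1, 2 and 3. The groups overlapped throughout. Its log2 change was -0.16 (SE 0.19, adjusted p = 0.691; 95% interval -0.57 to 0.25). Whether the pumps differed in their change was not tested.

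Among the enzymes Lpl was called higher and Lcat was not called, and whether their changes differed was not tested. Lpl (chromosome 8, 68880555 to 68906932) encodes lipoprotein lipase, which frees fatty acids from lipoproteins and is known in brain from microglia and neurons. It had 379, 224 and 366 scaled reads in MCAO 1, 2 and 3, against 181, 193 and 148 in controls 1, 2 and 3. All MCAO libraries lay above all controls, MCAO 2 by the least. With means of 323 ± 86.3 after MCAO and 174 ± 23.5 in controls, Lpl rose by 0.86 on the log2 scale (SE 0.20, adjusted p = 0.0368), or 1.81-fold with a 95% interval of 1.34 to 2.45. The call rested on most of the libraries: it was lost without control 1 (adjusted p = 0.0834), control 3 (0.118), MCAO 1 (0.108) or MCAO 3 (0.143), with no intensity trend (0.184) and relative to astrocyte markers (0.0653), while edgeR (0.00639) and DESeq2 (0.00116) on the recovered reads called it. Lcat (chromosome 8, 105939551 to 105943402), the cholesterol acyltransferase of lipoproteins, stood at 205, 168 and 190.5 scaled reads in MCAO 1, 2 and 3 and at 229.7, 121 and 228 in controls 1, 2 and 3. The MCAO values lay between control 2 and the other controls. The log2 change of Lcat was 0.02 (SE 0.23, adjusted p = 0.977; 95% interval -0.47 to 0.50).

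Lrp1 (chromosome 10, 127538157 to 127621148), the large endocytic receptor for apolipoprotein E particles, had 12197, 9023 and 13474 scaled reads in MCAO 1, 2 and 3, against 12403, 18617.5 and 11706 in controls 1, 2 and 3. Control 2 was the highest library and MCAO 2 the lowest, and the rest lay close together. Its log2 change was -0.29 (SE 0.25, adjusted p = 0.567; 95% interval -0.83 to 0.26). Nr1h2 (chromosome 7, 44549616 to 44553968), the LXR beta gene, stood at 159, 168 and 127 scaled reads in MCAO 1, 2 and 3 and at 138, 88.7 and 131 in controls 1, 2 and 3. MCAO 3 lay below controls 1 and 3. The change of Nr1h2 was 0.35 (SE 0.21, adjusted p = 0.370; 95% interval -0.09 to 0.79).

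Plin2 (chromosome 4, 86626910 to 86670217) encodes perilipin 2, which coats cytosolic lipid droplets and is used as their marker. It had 74.7, 71.5 and 90.6 scaled reads in MCAO 1, 2 and 3, against 41.2, 16.0 and 43.8 in controls 1, 2 and 3. The MCAO libraries lay close together and above all controls, of which control 2 was far below the others. These values rest on 127, 23 and 136 reads in MCAO 1, 2 and 3 and on 143, 9 and 29 reads in controls 1, 2 and 3, and the 9 reads of control 2 carry an exact 95% Poisson interval of 4.12 to 17.1 reads. Means were 78.9 ± 10.2 and 33.6 ± 15.4 in MCAO and control mice. The log2 change of 1.32 (SE 0.34, adjusted p = 0.0511; 95% interval 0.60 to 2.05) was nearly that of Apod, with a wider error. Plin2 was called by edgeR (adjusted p = 0.0245) and DESeq2 (0.0158) on the recovered reads, and without control 2 its change was 0.87 (limma, 0.0842). Of the 6 limma fits without 1 library 1 called it, that without control 3 (0.0376). With no intensity trend its limma adjusted p was 0.178.

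**Figure D2:**
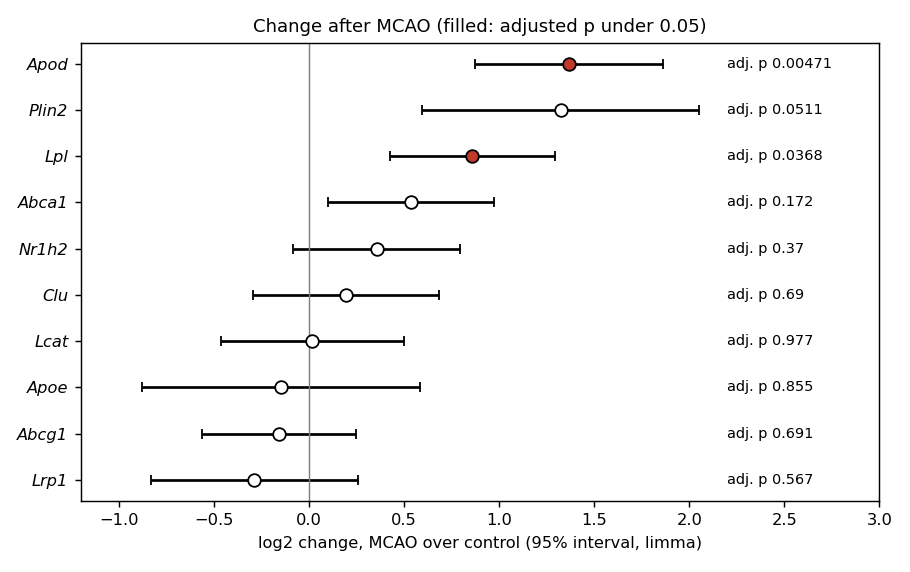
Log2 change after MCAO over control (horizontal axis) of each gene, with its 95% interval from limma and its adjusted p; filled points are called. The intervals of Apod (0.87 to 1.86), Lpl, Plin2 and Abca1 lie above 0, and those of the other 6 genes span it.

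The shallowest library of each group was often at the edge of its group. MCAO 2 held the lowest MCAO value for 7 of the 10 genes, and control 2 the lowest control value for 7 and the highest for Abcg1, Lpl and Lrp1. Library weights estimated over all genes were 0.480 for MCAO 2 and 0.440 for control 2, the lowest of the 6. The astrocyte markers summed to 43556.5, 50784.8 and 56639 scaled reads in MCAO 1, 2 and 3, against 70419.9, 39883.5 and 69504.2 in controls 1, 2 and 3, so that control 2 was the lowest of the 6 libraries there too. Relative to the mean log2 value of the 14 astrocyte markers other than Gfap, a scale chosen after seeing the data, Apod stood at -1.07, -2.09 and -1.66 in MCAO 1, 2 and 3, against -3.19, -3.24 and -3.23 in controls 1, 2 and 3, where the controls lay close together. On the same scale Clu stood at 2.37, 2.18 and 2.13 in MCAO 1, 2 and 3, above its 1.73, 1.79 and 1.84 in controls 1, 2 and 3. That difference of 0.44 gave p = 0.1 in a two-sided exact permutation test, and 3 against 3 cannot go lower (0.2 when adjusted over the 10 genes), and limma did not call it (adjusted p = 0.667). With this scale 15.0% of tested genes had all MCAO libraries above all controls. Of the 10 genes Clu, Apod, Abca1, Nr1h2 and Plin2 did so, and the others overlapped between the groups. Centring on these markers put the median change over the tested genes at 0.23 (log2). Apod (1.61), Plin2 (1.57), Lpl (1.11), Abca1 (0.78), Nr1h2 (0.60), Clu (0.44) and Lcat (0.26) lay above that median on this scale. The centred scale called 316 genes, 94.0% of them higher, against 387 genes, 74.4% of them higher, on the deposited scale. Apoe overlapped between the groups on this scale too, at 3.31 to 4.05 after MCAO and 3.33 to 3.63 in controls.

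**Figure D3:**
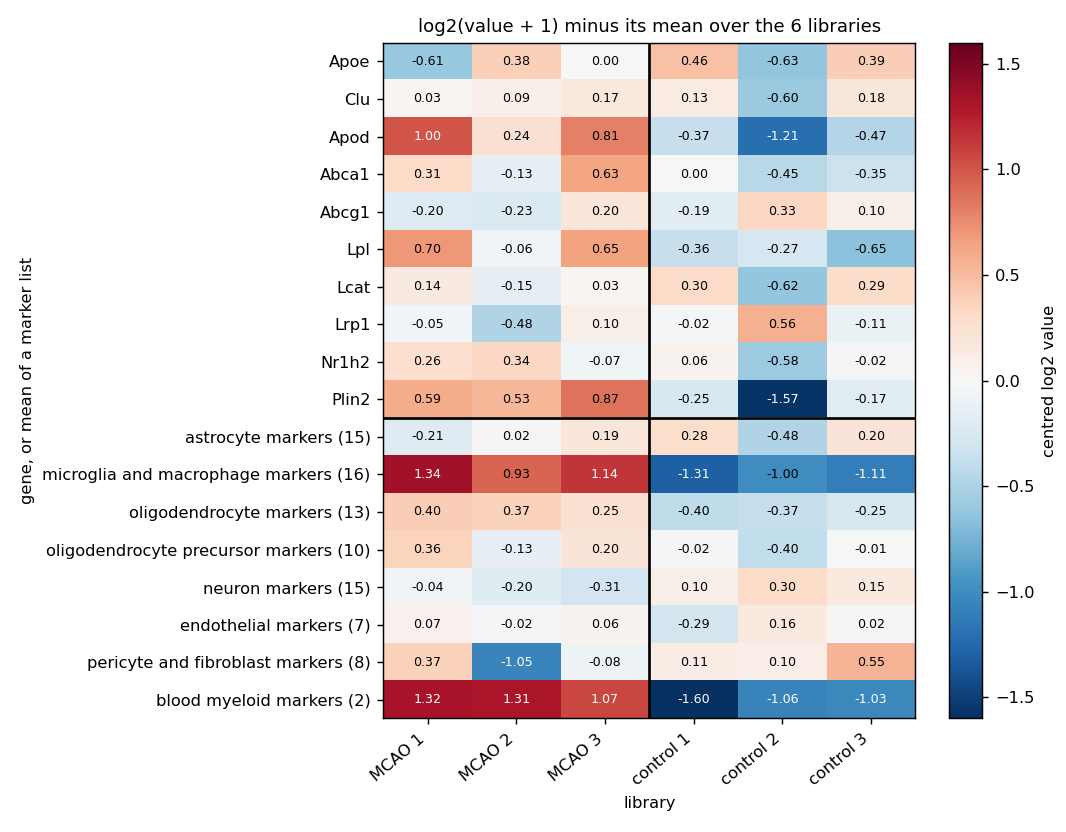
Log2(value + 1) minus its mean over the 6 libraries (colour and printed values) for the 10 genes and, below the line, for the mean of each marker list, with the number of its genes in the table; MCAO libraries are left of the vertical line. Apod and Plin2 are above 0 in all MCAO libraries and below 0 in all controls. The microglia and macrophage, oligodendrocyte and blood myeloid markers are so too, and Lpl is so but for MCAO 2 (-0.06). Apoe (-0.63) and the astrocyte markers (-0.48) are low in control 2, as are Clu, Apod, Abca1, Lcat, Nr1h2, Plin2 and the oligodendrocyte precursor markers.

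Markers of other cells moved in the same libraries as Apod, Lpl and Plin2. Of all tested genes limma called 2.30% higher and 0.789% lower, and 19.3% had an unadjusted p under 0.05. The 16 microglia and macrophage markers summed to 2532 to 3437 scaled reads after MCAO and 691 to 956 in controls, and 12 of the 16 rose (Cd68 by 3.86 and C1qb by 3.49 on the log2 scale). Of the 13 oligodendrocyte markers 7 rose, with sums of 12744 to 16149 after MCAO and 8535 to 9703 in controls. Of the 14 blood myeloid markers 2 were in the table, Lyz2 and Csf3r, and both rose. Of the 15 astrocyte markers Gfap rose and 11 had negative changes, with a median of -0.23. Limma called none of those 11 and neither did edgeR, while DESeq2 called Slc1a3 (-0.75, adjusted p = 0.00779) and Sparcl1 (-0.87, 0.00388) lower. An unadjusted limma p under 0.05 was reached by 4 of the 15, the risen Gfap and the negative Slc1a3, Sparcl1 and Slc4a4. Aldh1l1, the astrocyte gene named in any case, was 1 of the 4 positive markers, at 724 ± 219 scaled reads after MCAO and 571 ± 63.0 in controls (limma adjusted p = 0.430). The 15 neuron markers summed to 22429 to 26859 scaled reads after MCAO and 25090.5 to 28764 in controls, with control 2 the highest library. They held 3 fallen genes, the striatal genes Ppp1r1b, Drd1 and Drd2. Oligodendrocyte precursor markers summed to 1390.3 to 1716 after MCAO and 1009 to 1281 in controls, with 1 of 10 risen. Endothelial markers (7 of 12 in the table, 5 tested) and pericyte and fibroblast markers (8 of 12 in the table, 7 tested) held no gene called by limma, edgeR or DESeq2, with 0 and 1 at an unadjusted p under 0.05, and their sums overlapped between the groups. No marker in the table was at the floor in every library. The part of these cells in the rise of Apod and Lpl was not tested.

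Among other genes of lipid transport 3 were called by limma, all higher. Of 137 listed genes 98 were tested, and 3 of these rose and 0 fell, which is 3.06% against 3.08% of all tested genes. Their median log2 change was -0.02. The groups did not overlap in 30 of the 98 genes, 11 higher and 19 lower after MCAO, where 12.4% of tested genes were higher and 12.5% lower in this way. EdgeR called 5 of the 98 (5.10%, against 4.14% of all tested genes) and DESeq2 called 9 (9.18% against 4.38%). Without the shallowest library of each group 12 were called (12.2% against 4.52%), and with library weights 13 (13.3% against 7.98%). An unadjusted p under 0.05 was reached by 26 of the 98 and by 19.3% of all tested genes.

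The 3 risen genes were Msr1, Stab1 and Ch25h. Msr1 and Stab1 sit in the list of LDL and sorting receptors but are scavenger receptors known from macrophages, which take up modified lipoproteins and debris. Stab1 had 128, 46.7 and 137 scaled reads in MCAO 1, 2 and 3, against 10.4, 14.2 and 18.1 in controls 1, 2 and 3, a log2 change of 2.67 (SE 0.39, adjusted p = 0.00161). Msr1 had 51, 5 and 75 reads in MCAO 1, 2 and 3 and stood at the floor of the table in every control. Its MCAO mean of 31.8 ± 17.3 scaled reads (adjusted p = 0.00490) was 8.92 times 3.57, the mean over the controls of what 3 reads are worth in each. That ratio holds no error of the MCAO mean. The limma log2 change of Msr1 was 3.89 (95% interval 2.48 to 5.31). Ch25h, which makes the oxysterol and LXR ligand 25-hydroxycholesterol, had 35, 5 and 40 reads in MCAO 1, 2 and 3, against 1 read in controls 2 and 3 together (adjusted p = 0.0162). Per unit of depth that is a ratio of 27.9 (95% exact interval 4.86 to 1114, counting error only), and control 1 can hide up to 3 reads. In each of the 3 genes MCAO 2 was the lowest MCAO library, as it was for the summed microglia and macrophage markers, whose part in these values was not tested. Msr1 kept its call in 5 of the 6 fits without 1 library and Ch25h in 4.

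**Figure D4:**
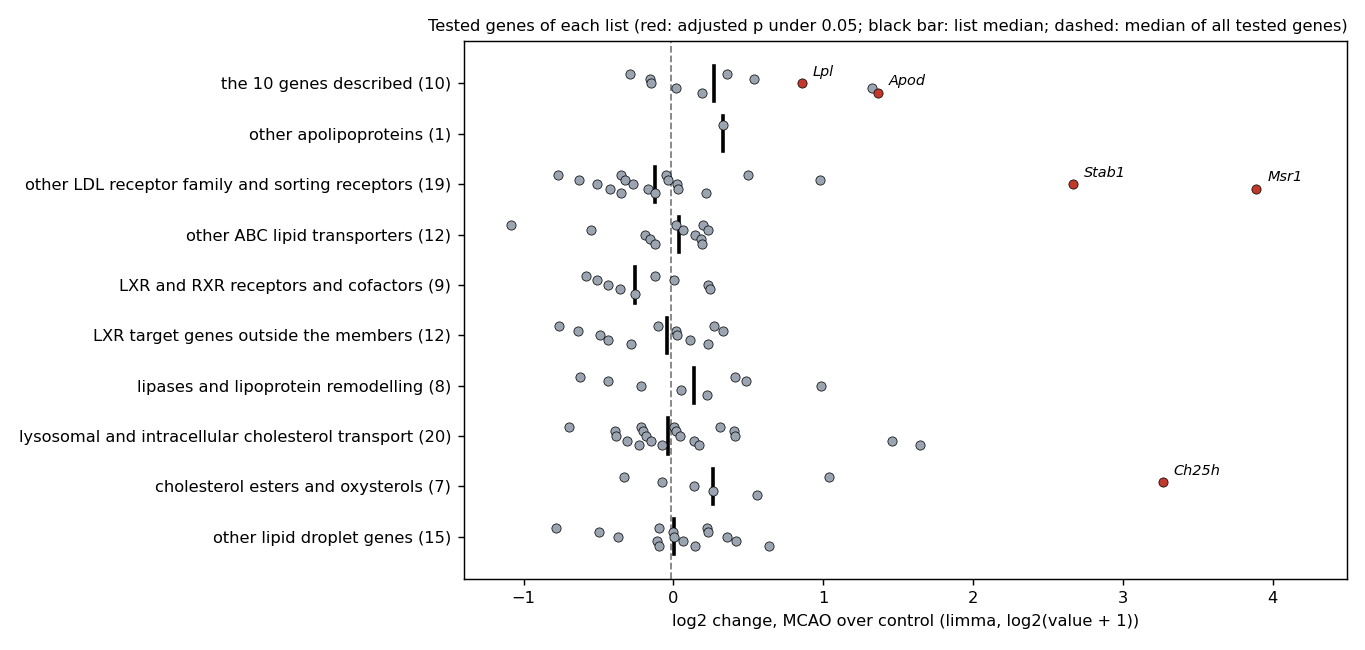
Log2 change after MCAO over control (horizontal axis) of every tested gene of each list, with the number tested in brackets; red points are called, black bars are list medians and the dashed line is the median of all tested genes (-0.01). Stab1, Msr1 and Ch25h lie far to the right of lists whose medians stay between -0.26 and 0.33.

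Target genes of LXR outside the set held no called gene. Of 14 listed, 12 were tested and limma called 0 (3 at an unadjusted p under 0.05, 1 by edgeR, 3 by DESeq2), with a median of -0.04. Over all tested genes limma called 3.08%, edgeR 4.14% and DESeq2 4.38%, and 19.3% had an unadjusted p under 0.05. The 3 that DESeq2 called were all lower after MCAO: Scd1 and Scd2, which encode stearoyl-CoA desaturases, and Mertk, a phagocytic receptor gene. Scd2, the named gene of this list, stood at 9014, 10849 and 10023 scaled reads in MCAO 1, 2 and 3 and at 16149, 11343 and 14914 in controls 1, 2 and 3 (log2 change -0.49, SE 0.22, adjusted p = 0.250). Named after their values were seen, Scd1 was at -0.64 (adjusted p = 0.0793) and Mertk at -0.76 (0.0758), and the LXR target Srebf1, a regulator of lipid synthesis, overlapped between the groups (0.11). Nr1h3, the LXR alpha gene, was at 0.23 (SE 0.44). Among the 9 tested LXR and RXR receptors and cofactors limma, edgeR and DESeq2 called 0 (3 at an unadjusted p under 0.05), and the corepressor gene Ncor1 had 365, 286 and 348 scaled reads in MCAO 1, 2 and 3, against 401, 502 and 448 in controls 1, 2 and 3 (-0.44, adjusted p = 0.143).

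The other lists held no gene called by limma. The shares over all tested genes were 3.08% called by limma, 4.14% by edgeR and 4.38% by DESeq2, with 19.3% at an unadjusted p under 0.05. Of 12 tested ABC lipid transporters limma, edgeR and DESeq2 called 0, with 1 at an unadjusted p under 0.05, and Abca2, an ABC gene of oligodendrocytes and neurons, changed by 0.14 (adjusted p = 0.594). Of 8 lipase and lipoprotein remodelling genes limma and edgeR called 0 and DESeq2 called 1, Pla2g7, with 3 at an unadjusted p under 0.05. Pla2g7, a lipoprotein-associated phospholipase gene, had 1022, 1235 and 1258 scaled reads in MCAO 1, 2 and 3, against 2072, 1368 and 2055 in controls 1, 2 and 3 (-0.63, adjusted p = 0.0793). Of 20 genes for lysosomal and intracellular cholesterol transport limma called 0 (4 at an unadjusted p under 0.05), while edgeR and DESeq2 called Tspo, a mitochondrial outer membrane gene raised in reactive glia (1.46, limma adjusted p = 0.0711). Npc1 and Npc2, the lysosomal cholesterol exporters, were at 0.01 and 0.17, and Osbpl1a, an oxysterol-binding protein gene, at -0.07. Of 15 other lipid droplet genes limma and edgeR called 0 and DESeq2 called 1, Acsl3, an acyl-CoA synthetase of growing droplets (-0.50, limma adjusted p = 0.0866), with 2 at an unadjusted p under 0.05. The perilipin gene Plin3 had 94.1, 90.2 and 104 scaled reads in MCAO 1, 2 and 3, against 119, 44.3 and 104 in controls 1, 2 and 3, and the groups overlapped. Of 13 other apolipoprotein genes only Apoc1 was in the table (0.33, adjusted p = 0.602).

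The genes nearest to a pattern were sought among 8375 others with a mean of at least 50, by the root mean square distance of centred log2 values over the 6 libraries. Nearest to Apoe were Ntsr2 (0.0960), Pla2g16 (0.0963) and Adhfe1 (0.120), where the median distance was 0.528. Like Apoe, Ntsr2 was low in MCAO 1 and control 2, at 912 and 906 scaled reads, against 1190 to 1836 in the other libraries. Nearest to Apod were Cd9 (0.218), Tnfrsf1a (0.232) and Tpm4 (0.237), with a median distance of 0.814. Cd9 had 353, 299 and 459.6 scaled reads in MCAO 1, 2 and 3, against 146, 83.4 and 140.3 in controls 1, 2 and 3. As with Apod, the lowest control of Cd9 was control 2 and the lowest MCAO library was MCAO 2.

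**Figure D5:**
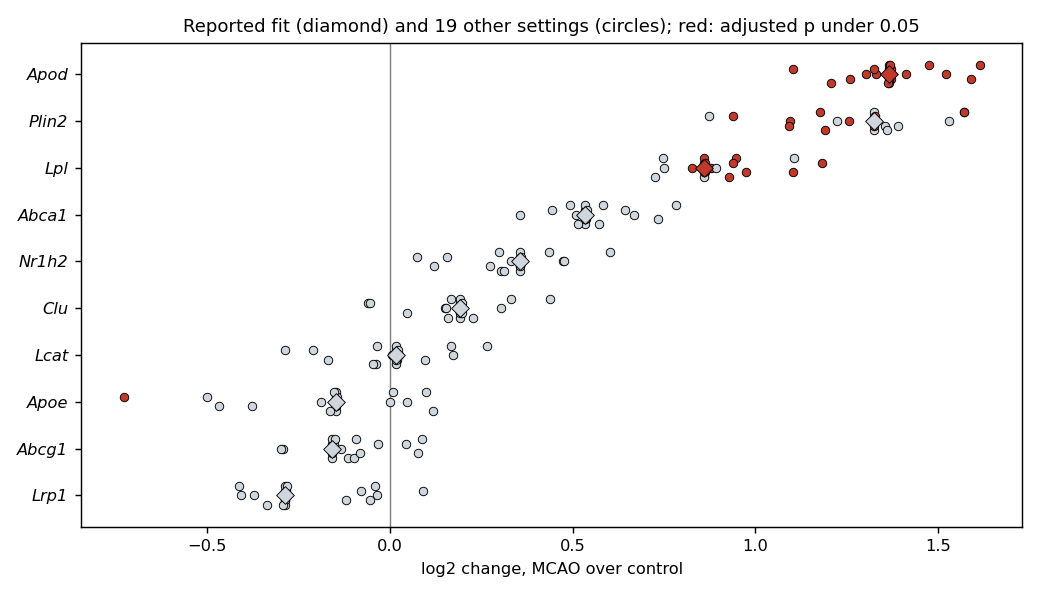
Log2 change after MCAO over control (horizontal axis) of each gene in the reported fit (diamond) and under 19 other settings (circles), red where called. Apod, Plin2, Lpl, Abca1 and Nr1h2 stay above 0 in all of these settings, and Apoe, Clu, Lcat, Abcg1 and Lrp1 fall on both sides of 0.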

How the data were processed

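RNA from RiboTag precipitates of 6 mice was sequenced as polyA TruSeq libraries, per the labels, with 1 column per animal. The submitters' processing notes name mm10, CASAVA 1.8, HISAT2, Partek 6.6, R 3.3.1 and DESeq2; how reads were counted and scaled, with which strand setting and gene filter, is not stated, so reads of overlapping or antisense genes cannot be told apart. The deposited signal is, from its values, a read count divided by 1 scale factor per library, with values under 1 listed as 1. Division by each column's step, 0.288 in control 1 to 3.11 in MCAO 2, gave whole reads within 0.1 for 99.95% of values above the floor in control 1 and 100.0% in the other libraries. Depth was 4567615, 882263 and 4027185 reads in MCAO 1, 2 and 3 and 9519548, 1538901 and 1816934 in controls 1, 2 and 3. Intervals and limits of a count of 0 hold counting error alone; PCR copies are not separate molecules. Each gene reaches at least 10.6 in some library.

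The test was limma 3.58.1 in R 4.3.3 (two-sided, intensity trend, pseudocount 1, mean of at least 10), with edgeR 4.0.16 and DESeq2 1.42.0 on recovered reads as alternatives. Fold changes are on the log2(value + 1) scale, which understates low genes. The fit was tested on simulated data. The animals of a group are the replicates, numbered in record order, and the labels give no pairing, batch or sex. The 10 genes and all lists were chosen with earlier results of these data known. Named from the pathway lists were, per list, the called genes with the largest changes (at most 3) or else the most abundant gene; genes outside this rule (Scd1, Mertk, Srebf1, Nr1h3, Tspo, Npc1, Npc2 and Plin3) were named after their values were seen. Gene positions are from RefSeq on GRCm38.p6.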

Additional observations from a re-analysis of the deposited data

How the results depend on the processing

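Apod kept its call in 18 of 19 alternatives and was lost with no intensity trend (1.37, adjusted p = 0.104), which also ended the call of Lpl (0.86, 0.184). Without the shallowest library of each group Apoe was called lower (-0.73) and Plin2 higher (0.94). Clu (-0.0549), Lcat (-0.211), Abcg1 (0.0430), Lrp1 (0.0894), Apoc1 (-0.164) and Osbpl1a (0.0090) changed sign in that fit without a call. It called 4 of the 10 genes, 12 of 98 listed pathway genes (12.2%) and 236 lower genes, where 4.52% of all tested genes were called. Plin2 was also called without control 3 (1.57), with a pseudocount of 10 (1.09), robust moderation (1.32), quantile normalisation (1.26) and recomputed median-ratio scaling (1.33). EdgeR (1.176), DESeq2 (1.19), library weights (1.09) and astrocyte marker centring (1.57) called it too. That centring, chosen after seeing the data, ended the call of Lpl (1.11), turned Apoe (0.0983), Abcg1 (0.0884) and Osbpl1a (0.173) positive and left 19 lower genes called. Library weights turned Abcg1 (0.0763) and Lcat (-0.169), and edgeR (-0.0352) and DESeq2 (-0.0381) turned Lcat. The causes were not tested.

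Called genes numbered 157 with no intensity trend (139 higher, 18 lower), which is 1.25% of all tested genes and held 0 of the 10. With library weights 1002 were called (566 higher, 436 lower). A mean of at least 50 left 181 higher genes, and DESeq2 called 161 lower genes. With a mean of at least 50, 1 of 73 tested pathway genes was called (1.37%, against 3.25% of all tested genes). Of the 98 pathway genes edgeR called 5 (5.10% against 4.14%) and DESeq2 9 (9.18% against 4.38%). Library weights gave 13 (13.3% against 7.98%).

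With 1 library left out, called genes ranged from 148 to 306 (120 to 220 higher, 23 to 97 lower), or 1.18% to 2.44% of all tested genes. Called pathway genes ranged from 1 to 7 of 98 (1.02% to 7.14%) and called genes of the 10 from 1 to 2. Log2 changes ranged from -0.50 to 0.12 for Apoe, -0.0596 to 0.33 for Clu, -0.29 to 0.17 for Lcat, -0.0946 to 0.606 for Apoc1, 0.72 to 1.103 for Lpl and 0.87 to 1.57 for Plin2. No paired analysis was possible because the labels give no pairing of the animals. Depth limits genes of low count, such as Plin2 with 23 reads and Msr1 and Ch25h with 5 reads each in MCAO 2.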
